A study of Homo sapiens with 9 samples.

Results

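The autophagy machinery genes described here are 39 listed genes for initiation, membrane nucleation, lipid transfer, conjugation, the LC3 family, cargo receptors and fusion with lysosomes. They were matched by symbol to 60880 Ensembl gene IDs and all 39 were found. Macroautophagy wraps cytoplasm, damaged organelles or particles in a double membrane, the autophagosome, which then fuses with a lysosome. The ULK kinase complex starts the process when nutrients or energy fall, a class III PI3-kinase complex marks the membrane, and a ubiquitin-like conjugation system attaches LC3 and GABARAP proteins to it. Cargo receptors tie ubiquitinated cargo to LC3. Transcript levels say nothing directly about the rate of autophagy, which is set largely by protein modification.

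RNA-seq libraries came from SNU5, an established human gastric carcinoma line. One group received ramucirumab coupled through PEG to gold nanorods (AuNR-PEG-Ab, NR group), another received the antibody coupled in the same way to gold nanospheres (AuSP-PEG-Ab, SP group), and the third received free ramucirumab, an antibody against VEGFR2 (Ab group). All 3 groups had the antibody at 8 μg/mL for 24 h, with 3 libraries each, and the 9 libraries include neither untreated cells nor cells given gold without antibody. A difference from Ab therefore cannot be assigned to gold or to the altered form of the antibody, which cannot be told apart in this design. The study calls the libraries of a group biological replicates, and the labels do not say how the cultures were separated, so the p-values measure the spread between these libraries.

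Library totals ran from 13863155 counts (NR replicate 2) to 26318227 (Ab replicate 2). After TMM scaling to counts per 1e6 reads (CPM), the 39 genes together took 3584, 3570 and 3617 CPM in the Ab libraries, 2583, 2606 and 2634 in those of NR and 2604, 2575 and 2610.2 in those of SP. The summed level was thus lower in all 6 gold libraries than in all 3 Ab libraries. Abundant members weigh most in this sum. Mean SQSTM1 was 628 CPM in Ab, 435 in NR and 429 in SP, and mean ULK1 was 491, 164 and 152. By the sign of the fold change alone, 16 of the 38 members tested were higher in NR than in Ab, and 14 in SP. Every member other than GABARAP had at least 51 counts in each library. GABARAP, a member of the LC3 family, had 0 to 7 counts per library and was not tested. As other annotated genes overlap 48.2% of its exon bases, its low count does not establish that it is not expressed. Over 10% of exon bases were shared in 9 members in all (ATG101, BECN1, ATG14, ATG9A, WIPI1, ATG4D, ATG7, GABARAP and SQSTM1), and reads there may have been counted for either gene or for none.

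Several features of the libraries bear on the values. Replicate 1 of Ab stood apart, with a chi-square per gene of 7.43 and 6.95 against replicates 2 and 3 of its group, where those 2 differed by 2.17. RB1CC1, TAX1BP1 and PIK3C3 were lower in that library than in the other Ab libraries, and values without it are given below. The share of counts from mitochondrial genes was 4.36 to 4.66% in the gold libraries and 3.41 to 3.71% in Ab. Of the epithelial markers, KRT7, KRT8, KRT18, MUC1 and CLDN4 were expressed in every library, while KRT19, KRT20, CDH17 and TFF1 were at or near 0 and CDH1 stood at 5, 5 and 9 counts in Ab. The gastric epithelial label was therefore met by some of its markers only. Several of these markers moved with the groups. CDH1 was 19.2-fold higher in NR and 23.0-fold higher in SP than in Ab, EPCAM 3.19-fold and 3.03-fold, and MUC1 3.62-fold in each. KRT8 was higher by log2 1.52 in NR and 1.59 in SP, while KRT7 was 2.18-fold and 1.90-fold lower (all with an adjusted p of at most 0.05 by edgeR). The 6 fibroblast markers summed to 105 to 118 CPM in the gold libraries and 18.0 to 46.1 in Ab, with LUM at 36.8 to 38.7 CPM in gold and 0.92 to 0.97 in Ab, where COL1A1 was the most abundant of the list. COL1A2 had 0 counts in NR replicates 2 and 3. The endothelial markers with an ID, 4 of 5, summed to 20.8 to 24.1 CPM in gold and 3.79 to 5.23 in Ab, led by CDH5, with TEK at or near 0. Of the leukocyte markers, CSF1R was at 2.7 to 5.67 CPM in gold and 0.145 to 0.307 in Ab, and the defining genes PTPRC, CD3E and MS4A1 were at or near 0. The part of these differences in the results was not tested. In bulk RNA, fewer expressing cells and less RNA per cell cannot be told apart.

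Promoter windows are shown for 4 members, chosen because 3 of them fell and 1 rose with both gold conjugates, so that their sequences can be set beside the values that follow. Each runs 5′ to 3′ from 250 bases before to 50 bases after the transcription start of RefSeq (GRCh38.p14, plus strand), at chr12:131894372-131894671 for ULK1, chr16:87392086-87392385 for MAP1LC3B, chr12:10212627-10212926 for GABARAPL1 and chr5:81971773-81972072 for ATG10. Capitals mark a match to any of the 4 motifs below.
ULK1: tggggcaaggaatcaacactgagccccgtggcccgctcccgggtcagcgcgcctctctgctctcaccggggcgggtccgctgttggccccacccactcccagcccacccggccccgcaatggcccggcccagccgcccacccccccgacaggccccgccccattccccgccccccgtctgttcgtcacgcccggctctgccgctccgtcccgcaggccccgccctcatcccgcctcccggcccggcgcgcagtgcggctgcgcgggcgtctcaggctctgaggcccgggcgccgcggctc
MAP1LC3B: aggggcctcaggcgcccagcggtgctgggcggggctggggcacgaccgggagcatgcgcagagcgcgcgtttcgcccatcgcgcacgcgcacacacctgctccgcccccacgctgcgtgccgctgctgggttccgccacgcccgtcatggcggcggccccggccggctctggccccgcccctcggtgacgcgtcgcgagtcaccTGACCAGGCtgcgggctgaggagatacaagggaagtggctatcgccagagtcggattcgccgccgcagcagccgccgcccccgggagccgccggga
GABARAPL1: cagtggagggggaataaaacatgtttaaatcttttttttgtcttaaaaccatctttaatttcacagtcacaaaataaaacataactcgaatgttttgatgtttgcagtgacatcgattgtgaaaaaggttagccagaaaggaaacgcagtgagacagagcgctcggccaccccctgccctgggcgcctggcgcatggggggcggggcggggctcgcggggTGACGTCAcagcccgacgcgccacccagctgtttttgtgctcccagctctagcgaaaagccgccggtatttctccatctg
ATG10: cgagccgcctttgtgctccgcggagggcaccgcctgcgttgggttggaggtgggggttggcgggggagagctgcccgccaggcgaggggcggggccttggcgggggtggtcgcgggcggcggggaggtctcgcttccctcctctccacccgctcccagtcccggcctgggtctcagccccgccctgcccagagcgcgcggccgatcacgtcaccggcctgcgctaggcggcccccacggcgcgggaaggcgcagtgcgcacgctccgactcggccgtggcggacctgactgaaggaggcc

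The motifs, searched on both strands, were CACGTG, the E-box core bound by TFEB, TFE3 and MITF among others, TGATGNAA, an ATF4 composite element, TGACGTCA, the cyclic AMP response element, and TGACNNNGC, an antioxidant element core. None of their matches overlapped another in these windows. Of 35116 RefSeq windows, 7.26% held the E-box, 3.62% the ATF4 element, 1.85% the cyclic AMP element and 13.3% the antioxidant core. Among the 33 members in the table, the E-box was found in 2 (ATG14 and ATG3), the ATF4 element in 0, the cyclic AMP element in 1 (GABARAPL1) and the antioxidant core in 3 (ATG101, CALCOCO2 and MAP1LC3B). The windows of ULK1 and ATG10 held none of the 4, which says only that these letters are absent from these 300 bases.

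The comparisons with Ab ask how the transcripts differ when the antibody is carried on gold. With nanorods, 7 of the 38 members tested rose and 17 fell (edgeR quasi-likelihood test, Benjamini-Hochberg adjusted p of at most 0.05), or 18.4% and 44.7%, where 36.4% of all 15009 genes tested rose and 36.4% fell. With nanospheres, 9 rose and 15 fell, or 23.7% and 39.5%, beside 36.4% and 36.6% of 15068 genes. A change of at least 2-fold was added to make a call, as the study did. No member was called higher in NR, where 12.4% of all genes were, and 3 members (ULK1, RB1CC1 and MAP1LC3B) were called lower, beside 10.3% of genes. In SP, no member was called higher (12.6% of genes) and 2 (ULK1 and MAP1LC3B) were called lower (10.6% of genes). The median log2 fold change of the members was -0.08 in NR and -0.07 in SP, and that of all genes was -0.01 in each. Most members thus moved by less than 2-fold, against a background in which nearly 3 in 4 genes passed the test. Both comparisons share the 3 Ab libraries, so they are not independent of each other.

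**Figure D1:**
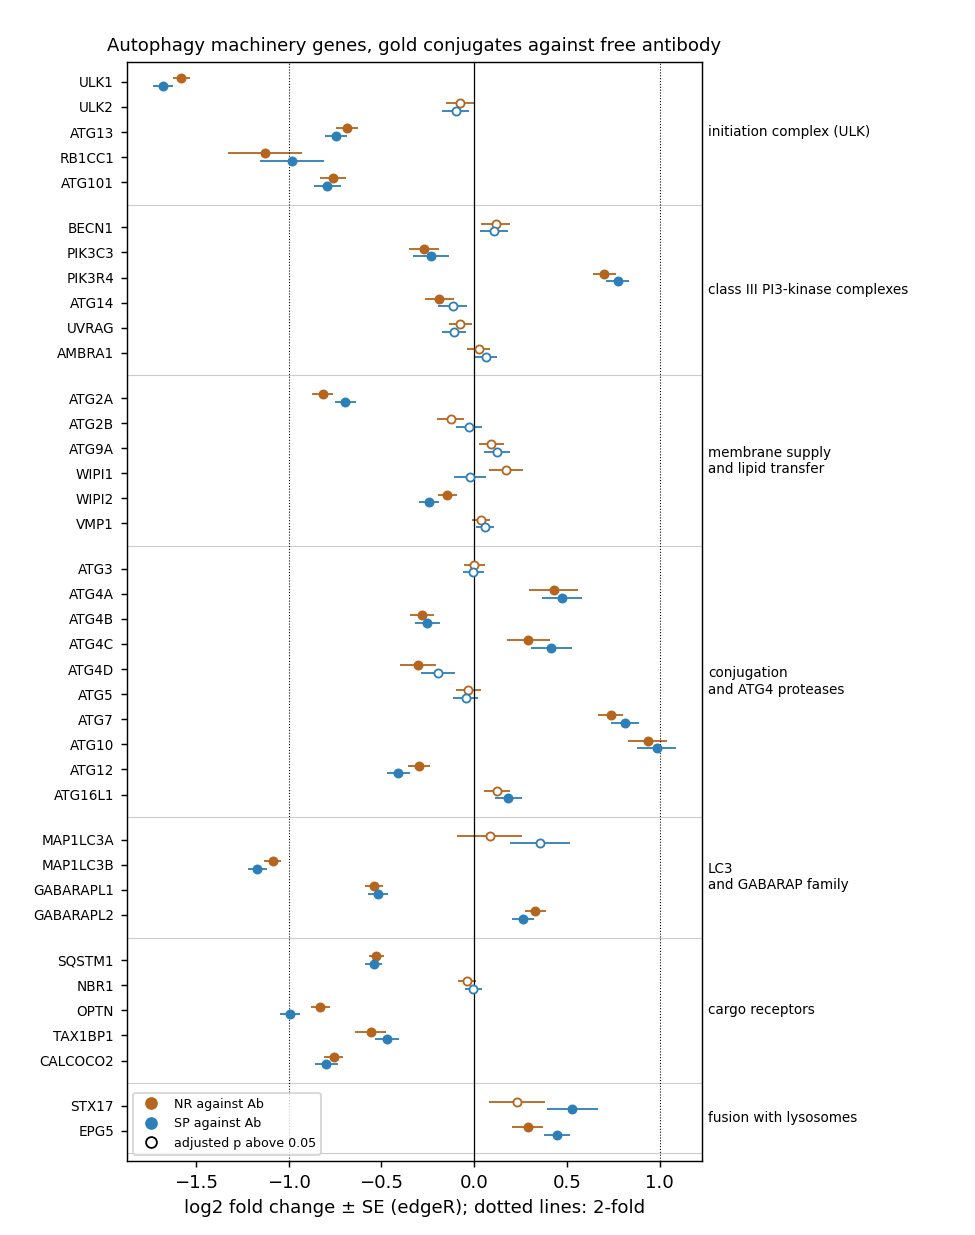
Log2 fold change with its standard error (edgeR) for the 38 tested members, grouped by role, in NR against Ab (brown) and SP against Ab (blue). Filled points had an adjusted p of at most 0.05, and dotted lines mark 2-fold. ULK1 and MAP1LC3B lie left of the 2-fold line in both comparisons, and no point lies right of it.

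In the ULK initiation complex, 4 of 5 genes fell with each conjugate (ULK1, ATG13, RB1CC1 and ATG101), and ULK2 did not pass the test. The median log2 fold change of the 5 was -0.76 in NR and -0.79 in SP. ULK1 encodes the kinase that starts autophagosome formation (ENSG00000177169, chromosome 12, 132379167 to 132407695 on the plus strand of GRCh37). Its level was 521, 478 and 473 CPM in the Ab libraries, 160.2, 165 and 166 in those of NR and 142, 163 and 152 in those of SP. All 6 gold libraries lay below all 3 Ab libraries, with no overlap. ULK1 was 2.99-fold lower in NR (-1.58 ± 0.05, SE, adjusted p = 7.24e-22 by edgeR) and 3.20-fold lower in SP (-1.68 ± 0.05, adjusted p = 1.31e-19 by edgeR). It was the member with the largest change in both comparisons.

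RB1CC1 encodes FIP200, the scaffold of the ULK complex. It stood at 61.9, 87.7 and 94.7 CPM in the Ab libraries, 40.1, 33.8 and 37.1 in those of NR and 42.2, 41.3 and 39.8 in those of SP. The gold libraries were again all lower, but Ab replicate 1 lay well under the other Ab libraries. The fold change was -1.13 ± 0.20 on the log2 scale in NR (adjusted p = 0.00588 by edgeR) and -0.98 ± 0.17 in SP (adjusted p = 0.00403 by edgeR). Without Ab replicate 1 these became -1.29 and -1.15, past 2-fold in both. ATG13, the regulatory subunit that binds ULK1, fell by 0.69 (SE 0.06) in NR and 0.74 (SE 0.06) in SP on the log2 scale. ATG101, the partner that stabilizes ATG13, fell by 0.76 (SE 0.07) and 0.79 (SE 0.07). ULK2, the close relative of ULK1, was level at 34.5 ± 2.39 CPM in NR, 33.8 ± 1.31 in SP and 36.5 ± 3.02 in Ab (SD, n = 3), and its log2 fold changes of -0.08 and -0.10 missed the threshold.

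**Figure D2:**
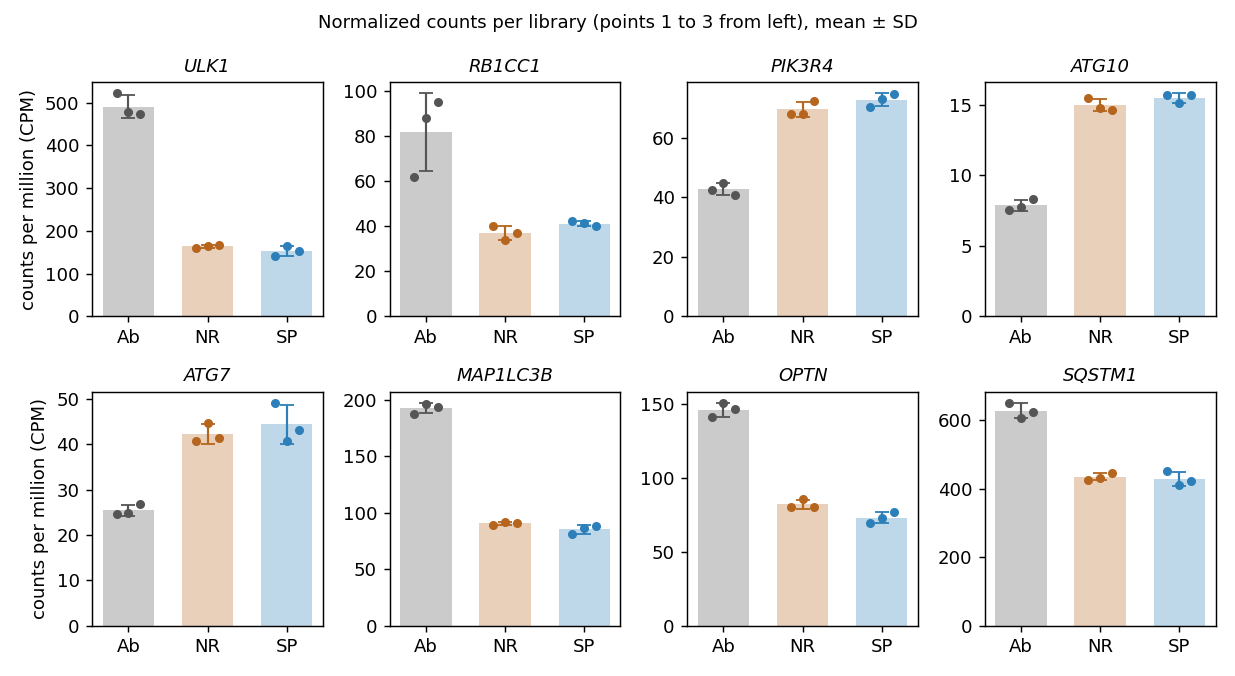
Normalized counts (CPM) of 8 members in each of the 9 libraries. Points are libraries 1 to 3 from left to right, bars are group means and whiskers are SD. ULK1, MAP1LC3B, OPTN and SQSTM1 are lower in both gold groups than in Ab, PIK3R4, ATG7 and ATG10 are higher, and RB1CC1 shows the low first Ab library.

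The class III PI3-kinase complexes, which make phosphatidylinositol 3-phosphate on the growing membrane, changed little apart from a single subunit. PIK3R4 encodes the regulatory subunit VPS15 (chromosome 3, 130397778 to 130465673, minus strand). It was at 42.5, 44.9 and 40.7 CPM in the Ab libraries, 68.1, 67.9 and 72.5 in those of NR and 70.4, 73.0 and 74.7 in those of SP. Every gold library exceeded every Ab library. The increase was 1.63-fold in NR (log2 0.70 ± 0.06, adjusted p = 2.51e-11 by edgeR) and 1.71-fold in SP (0.77 ± 0.06, adjusted p = 7.26e-12 by edgeR). PIK3C3, the catalytic subunit VPS34, went the other way and fell by 0.27 (SE 0.08) in NR and 0.23 (SE 0.10) in SP on the log2 scale. In SP, PIK3C3 did not pass with DESeq2 (adjusted p = 0.0717). It also missed the threshold without Ab replicate 2, Ab replicate 3, SP replicate 1 or SP replicate 2 (edgeR adjusted p = 0.168, 0.110, 0.217 and 0.135). Without Ab replicate 1 the log2 fold changes were -0.38 in NR and -0.34 in SP (edgeR adjusted p = 5.75e-06 and 0.000287). ATG14, which directs the complex to autophagy, fell in NR by 0.19 (SE 0.08), and its value in SP was -0.12 (SE 0.08). The NR fall of ATG14 also missed the threshold with DESeq2 (adjusted p = 0.121). BECN1, the core scaffold, UVRAG, its alternative partner, and AMBRA1, a positive regulator, did not pass in either comparison, with log2 fold changes between -0.11 and 0.12.

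Of the 6 genes that supply membrane or move lipid, ATG2A and WIPI2 fell with both conjugates and the other 4 did not pass. ATG2A encodes a bridge that carries lipid from the endoplasmic reticulum into the growing membrane. Its levels were tight within groups, at 79.8, 80.3 and 78.8 CPM in the Ab libraries, 43.3, 45.7 and 46.6 in those of NR and 47.3, 49.8 and 49.8 in those of SP. The groups did not overlap, and the fall was 1.76-fold in NR (adjusted p = 2.7e-13 by edgeR) and 1.62-fold in SP (adjusted p = 2.56e-11 by edgeR). Its paralog ATG2B was -0.13 (SE 0.07) in NR and -0.03 (SE 0.07) in SP on the log2 scale. WIPI2, a phosphoinositide reader that recruits the conjugation machinery, fell by 0.14 (SE 0.05) and 0.24 (SE 0.05). WIPI1, ATG9A, the lipid scramblase of the seed vesicles, and VMP1, an endoplasmic reticulum scramblase, had log2 fold changes between -0.02 and 0.17, with 28.1% of the exon bases of WIPI1 and 38.8% of those of ATG9A shared with other genes.

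The conjugation genes were divided, and so were all genes tested. Among the latter, 36.4% rose and 36.4% fell in NR, and 36.4% and 36.6% in SP. In NR, 4 of the 10 conjugation genes rose (ATG4A, ATG4C, ATG7 and ATG10) and 3 fell (ATG4B, ATG4D and ATG12). In SP, ATG16L1 was added to those that rose, and ATG4B and ATG12 fell. The median log2 fold change of the 10 was 0.06 in NR and 0.09 in SP. ATG10 encodes the E2-like enzyme that joins ATG12 to ATG5 (chromosome 5, 81267842 to 81572676, plus strand). It had 7.54, 7.74 and 8.28 CPM in the Ab libraries, 15.5, 14.8 and 14.6 in those of NR and 15.6, 15.1 and 15.6 in those of SP. Its level was 1.91-fold higher in NR (log2 0.94 ± 0.11, adjusted p = 7.4e-09 by edgeR) and 1.98-fold higher in SP (0.98 ± 0.10, adjusted p = 1.99e-09 by edgeR), just short of the 2-fold call. ATG7, the E1-like enzyme that activates both ATG12 and LC3, was at 24.7, 24.8 and 26.8 CPM in the Ab libraries, 40.8, 44.7 and 41.4 in those of NR and 49.2, 40.8 and 43.2 in those of SP. The rise was 1.66-fold in NR (adjusted p = 2.2e-10 by edgeR) and 1.76-fold in SP (adjusted p = 1.57e-10 by edgeR), with 18.1% of its exon bases shared with VGLL4.

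The substrate ATG12, a ubiquitin-like protein, fell by 0.30 (SE 0.06) in NR and 0.41 (SE 0.06) in SP on the log2 scale. ATG5, to which it is joined, and ATG3, the E2-like enzyme for LC3, lay within 0.05 of 0 in both. ATG16L1, which places the ATG12 and ATG5 conjugate on the membrane, had 0.12 (SE 0.07) in NR and rose by 0.18 (SE 0.07) in SP. Its SP rise missed the threshold with DESeq2 (adjusted p = 0.0551).

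The ATG4 proteases trim LC3 precursors and later release LC3 from membranes. ATG4A, which acts mainly on GABARAP proteins, rose 1.35-fold in NR and 1.39-fold in SP, and ATG4C rose 1.23-fold and 1.33-fold. The NR and Ab libraries of ATG4A overlapped, and its NR rise missed the threshold without NR replicate 1 (log2 0.23, adjusted p = 0.124, edgeR). The NR rise of ATG4C missed the threshold with DESeq2 (adjusted p = 0.103) and without Ab replicate 1 (adjusted p = 0.156, edgeR). ATG4B, the most active on LC3, fell by 0.28 (SE 0.06) and 0.25 (SE 0.07) on the log2 scale. ATG4D fell by 0.30 (SE 0.10) in NR and was at -0.19 (SE 0.09) in SP. Its NR fall missed the threshold without Ab replicate 1 (adjusted p = 0.0633, edgeR).

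In the LC3 and GABARAP family, MAP1LC3B and GABARAPL1 fell, GABARAPL2 rose and MAP1LC3A did not pass. MAP1LC3B encodes LC3B, the most used marker of autophagosomes (ENSG00000140941, chromosome 16, 87417559 to 87438385, plus strand). It was at 188, 196 and 194 CPM in the Ab libraries, 89.2, 91.7 and 90.7 in those of NR and 80.7, 86.3 and 88.5 in those of SP. No gold library reached the range of Ab, and MAP1LC3B was 2.12-fold lower in NR (-1.09 ± 0.05, adjusted p = 5.64e-18 by edgeR) and 2.25-fold lower in SP (-1.17 ± 0.05, adjusted p = 1.44e-17 by edgeR). Its near copy MAP1LC3B2, singled out because reads may be split between them, was at 1.84 to 2.80 CPM in gold and 4.68 to 5.37 in Ab. GABARAPL1 had 128, 124 and 125 CPM in the Ab libraries, 89.1, 82.4 and 87.1 in those of NR and 87.7, 80.8 and 93.7 in those of SP, so it was 1.45-fold lower in NR and 1.43-fold lower in SP. GABARAPL2 had 54.1, 52.9 and 50.9 CPM in the Ab libraries, 65.8, 65.4 and 66.6 in those of NR and 63.3, 62.7 and 62.4 in those of SP. It rose by 1.26-fold in NR (adjusted p = 8.36e-06 by edgeR) and 1.2-fold in SP (adjusted p = 0.000279 by edgeR).

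The order of the family changed between groups. In CPM per kilobase of exon, MAP1LC3B led in Ab at 38.2 ± 0.91 (SD, n = 3), followed by GABARAPL1 at 31.0 ± 0.55 and GABARAPL2 at 17.5 ± 0.55. In NR, GABARAPL2 (21.9 ± 0.19) and GABARAPL1 (21.3 ± 0.84) lay within their spread of each other and MAP1LC3B was below both at 18.0 ± 0.26. In SP, GABARAPL1 (21.6 ± 1.60) and GABARAPL2 (20.9 ± 0.15) also overlapped, with MAP1LC3B at 16.9 ± 0.80. The choice of length moves these levels. With the longest coding transcript in place of all exon bases, MAP1LC3B still led in Ab (61.4, against 54.8 for GABARAPL1 and 54.0 for GABARAPL2) and was still the lowest of the 3 in NR (28.9, against 37.6 and 67.7) and in SP (27.2, against 38.1 and 64.5). MAP1LC3A was low throughout, at 3.14 to 3.98 CPM per kilobase of exon as group means.

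**Figure D3:**
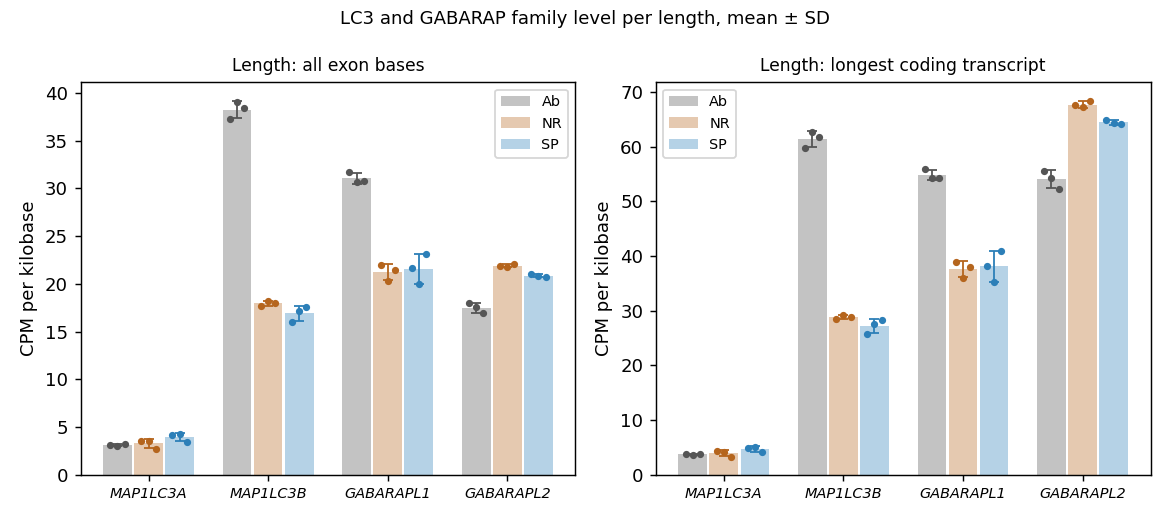
CPM per kilobase for 4 LC3 and GABARAP genes in Ab, NR and SP, with all exon bases as the length (left) or the longest coding transcript (right). Points are libraries, bars are means and whiskers are SD. MAP1LC3B is the highest of the 4 in Ab and lies below GABARAPL1 and GABARAPL2 in both gold groups with either length.

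Cargo receptors fell in 4 of 5 cases with each conjugate, and the median of their log2 fold changes was -0.56 in NR and -0.54 in SP. SQSTM1 encodes p62, the best known receptor for ubiquitinated cargo, and had the highest level per kilobase of exon among the 39 genes in all 3 groups. It was at 651, 608 and 625 CPM in the Ab libraries, 427, 432 and 447 in those of NR and 452, 413 and 423 in those of SP. All gold libraries lay under all Ab libraries, and the level was 1.44-fold lower in NR (-0.53 ± 0.04, adjusted p = 4.62e-12 by edgeR) and 1.45-fold lower in SP (-0.54 ± 0.05, adjusted p = 2.11e-11 by edgeR), with 22.4% of its exon bases shared with MRNIP and MGAT4B. OPTN encodes optineurin, a receptor for mitochondria and bacteria, and was at 141, 151 and 146 CPM in the Ab libraries, 80.4, 85.9 and 80.2 in those of NR and 69.3, 73.0 and 76.8 in those of SP. It was 1.78-fold lower in NR (adjusted p = 1.24e-14 by edgeR) and 1.99-fold lower in SP (adjusted p = 2.1e-15 by edgeR). Without Ab replicate 1, its log2 fold change in SP was -1.02, past the 2-fold line.

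CALCOCO2, the bacterial receptor NDP52, fell 1.69-fold in NR and 1.74-fold in SP. TAX1BP1, its relative that clears protein aggregates, had 228, 279 and 281 CPM in the Ab libraries, 189, 175 and 169 in those of NR and 193, 184 and 188 in those of SP, and was 1.47-fold and 1.39-fold lower. Without Ab replicate 1, its log2 fold changes were -0.65 and -0.57, against -0.56 and -0.47 with all libraries. NBR1, a receptor that resembles p62, was at 181 ± 9.36 CPM in NR, 184 ± 0.90 in SP and 186 ± 7.78 in Ab (SD, n = 3), and its log2 fold changes of -0.04 (SE 0.05) and -0.00 (SE 0.05) missed the threshold.

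For fusion with lysosomes the list holds 2 genes. EPG5, a tether that gives the fusion its specificity, rose by 1.22-fold in NR (adjusted p = 0.00252 by edgeR) and 1.36-fold in SP (adjusted p = 2.05e-06 by edgeR). STX17, the SNARE protein of the autophagosome, was at 7.85, 9.54 and 12.5 CPM in the Ab libraries, 10.05, 13 and 12.5 in those of NR and 14.7, 15.6 and 12.6 in those of SP. It rose in SP by 1.44-fold (adjusted p = 0.00197 by edgeR) and missed the threshold in NR (log2 0.23 ± 0.15, adjusted p = 0.174 by edgeR), where its libraries overlapped with those of Ab. The NR value of STX17 turned on single Ab libraries, with log2 0.09 without Ab replicate 1 (adjusted p = 0.558, edgeR) and 0.42 without Ab replicate 3 (adjusted p = 0.00693, edgeR).

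The direct comparison of the conjugates asks whether the kind of particle matters at the same antibody dose. The study's rods and spheres came from different suppliers and differed in size, so shape cannot be told apart from these. None of the 38 members passed in NR against SP by edgeR, while the unadjusted p of 8 was under 0.05, or 21.1% of members beside 12.9% of all genes. Over the 14903 genes tested, 0.262% were higher and 0.181% lower, with 0.0201% and 0% called at 2-fold. DESeq2 gave an adjusted p for 14 of the members, of which 0 passed, and its unadjusted p was under 0.05 for 2 members. OPTN had the lowest edgeR p, with a log2 fold change of 0.17 ± 0.05 (unadjusted p = 0.00366, adjusted p = 0.145 by edgeR), and the 3 NR libraries were all above the 3 SP libraries. STX17 had the widest gap, -0.30 ± 0.11 (adjusted p = 0.221 by edgeR), and WIPI1 the widest in the other direction, 0.20 ± 0.09 (adjusted p = 0.338 by edgeR). The remaining 5 with an unadjusted p under 0.05 were ULK1 (0.10 ± 0.05) and WIPI2 (0.10 ± 0.05), higher in NR, and RB1CC1 (-0.14 ± 0.06), ATG2A (-0.12 ± 0.06) and EPG5 (-0.16 ± 0.07), lower in NR. Missing the threshold does not show that the conjugates act alike on these genes.

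**Figure D4:**
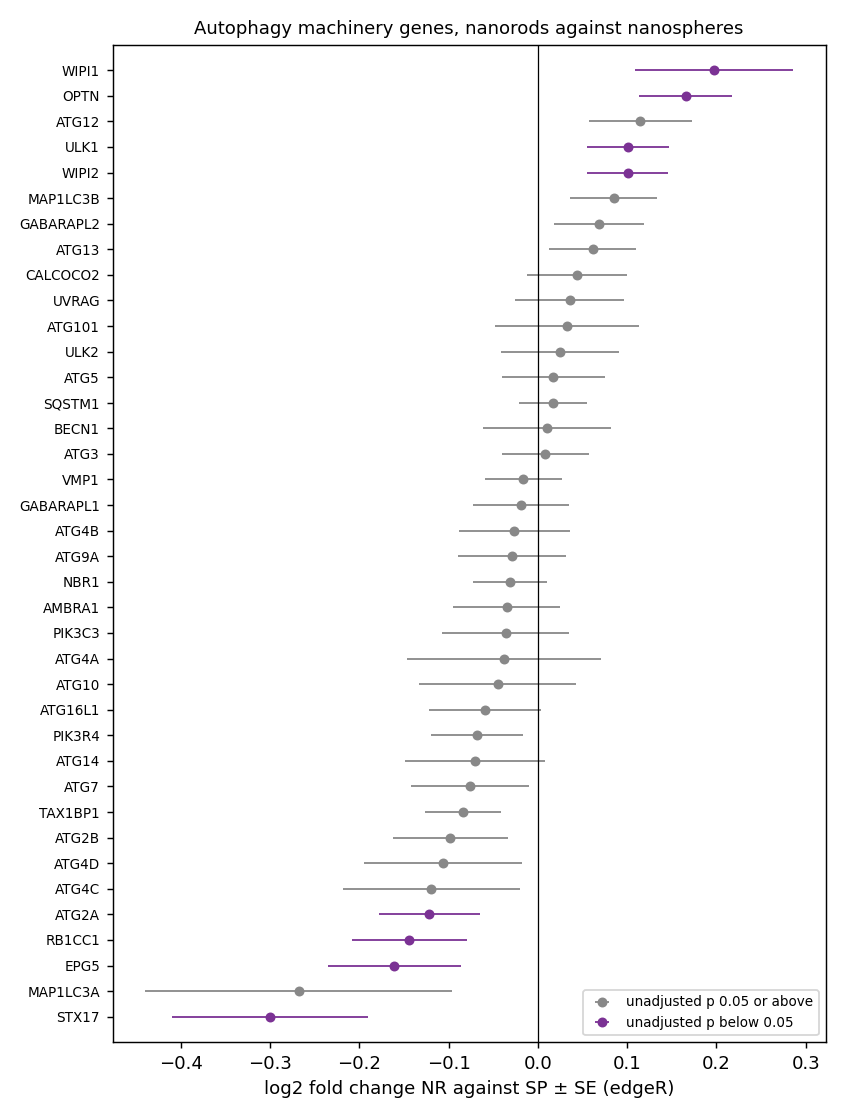
Log2 fold change of NR against SP with its standard error (edgeR) for the 38 tested members, ordered by value. Purple points had an unadjusted p below 0.05 and none passed after adjustment. Values run from -0.30 for STX17 to 0.20 for WIPI1.

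Other genes of the pathway were counted from lists grouped by role. These lists were chosen with earlier results of these data known, so the counts are not independent of the data. Of all genes tested, 36.4% rose and 36.4% fell in NR, and 36.4% and 36.6% in SP, beside each count that follows. Of 19 other core autophagy genes 16 were tested, of which 4 rose and 9 fell in NR and 5 rose and 9 fell in SP, with medians of -0.20 and -0.30 on the log2 scale. The widest changes were rises, in 2 genes singled out after their values were seen. TP53INP2 was 4.56-fold higher in NR and 4.78-fold in SP (adjusted p = 6.86e-11 and 1.53e-11 by edgeR). TP53INP1 was 4.56-fold and 6.19-fold higher, from only 7, 27 and 17 counts in the Ab libraries. The 3 genes with the smallest p in NR all fell. WDR45, a phosphoinositide-binding relative of WIPI2, was at 277, 256 and 260.3 CPM in the Ab libraries, 99.8, 94 and 95.6 in those of NR and 94.4, 97.0 and 101 in those of SP, 2.73-fold and 2.70-fold lower. WDR45B, its paralog, was 1.72-fold and 1.76-fold lower, and TECPR1, a lysosomal tether, 2.14-fold and 1.92-fold lower.

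Among 12 SNARE, HOPS and tether genes, 5 rose and 5 fell with each conjugate (medians of -0.05 and -0.05 on the log2 scale). This is beside 36.4% higher and 36.4% lower of all genes in NR, and 36.4% and 36.6% in SP. VAMP8, the lysosomal SNARE that pairs with STX17, was at 22.3, 19.0 and 21.0 CPM in the Ab libraries, 70.7, 70.1 and 62.9 in those of NR and 64.4, 59.1 and 63.1 in those of SP. It was 3.29-fold higher in NR (adjusted p = 2.09e-18 by edgeR) and 3.02-fold higher in SP (adjusted p = 2.26e-17 by edgeR). The HOPS subunits VPS18 (2.03-fold and 2.09-fold higher) and VPS41 (1.81-fold and 1.83-fold higher) were the other genes with the smallest p. The remaining HOPS subunits on the list passed with both conjugates but went both ways, at log2 -0.34, -0.32, -0.35 and 0.15 in NR.

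Of the 17 tested receptors for the endoplasmic reticulum, mitochondria and other cargo, 8 rose and 4 fell in NR and 6 rose and 4 fell in SP, with medians of 0.04 and 0.06. FKBP8, a mitophagy receptor, rose 1.62-fold and 1.61-fold. CALCOCO1, a receptor for the endoplasmic reticulum, rose 1.74-fold and 1.85-fold, and NCOA4, the receptor for ferritin, rose 1.38-fold and 1.35-fold.

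All 9 transcription factors listed for autophagy genes passed with both conjugates, 3 higher and 6 lower, with medians of -0.50 and -0.48. Of all genes tested, 36.4% rose and 36.4% fell in NR, and 36.4% and 36.6% in SP. The MiT family, which drives lysosomal and autophagy genes, was split. TFEB rose from 11.8 ± 0.41 CPM in Ab to 17.6 ± 0.41 in NR and 19.1 ± 0.72 in SP, and MITF from 55.2 ± 1.71 to 107 ± 7.59 and 108 ± 4.19 (SD, n = 3). TFE3, with a higher level per kilobase of exon than either in all 3 groups, fell from 220.4 ± 10.0 CPM to 137 ± 5.54 and 138 ± 5.37. ZKSCAN3, a repressor of autophagy genes, rose by 1.41-fold in NR and 1.74-fold in SP. Its NR rise missed the threshold without Ab replicate 3 (adjusted p = 0.0512, edgeR). FOXO3 fell by 1.76-fold and 1.67-fold, and FOXO1 by 1.41-fold and 1.33-fold. NFE2L2, the antioxidant regulator NRF2, was lower by 1.32-fold and 1.39-fold, where other genes overlap 38.4% of the exon bases. Its NR fall missed the threshold without NR replicate 1 (adjusted p = 0.0641, edgeR) and without NR replicate 3 (adjusted p = 0.0638, edgeR).

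ATF4, the main factor of the integrated stress response, which can raise transcription of several autophagy genes, was at 825, 770.1 and 799 CPM in the Ab libraries, 331, 306 and 296 in those of NR and 262, 276 and 295 in those of SP. It was 2.56-fold lower in NR (adjusted p = 1.72e-20 by edgeR) and 2.86-fold lower in SP (adjusted p = 1.11e-20 by edgeR). In NR against SP, ATF4 had a log2 fold change of 0.16 ± 0.05 (adjusted p = 0.101 by edgeR). Its partner DDIT3, or CHOP, fell from 39.9 to 44.8 CPM in Ab to 2.18 to 3.05 in NR and 3.27 to 4.21 in SP, a 15.3-fold and 11.8-fold difference, although other genes overlap 39.6% of its exon bases.

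The mTORC1, Rag and AMPK genes sense nutrients and energy upstream of ULK1. Of 36 listed, 33 were tested against Ab, and 12 rose and 15 fell in NR while 11 rose and 16 fell in SP, with medians of -0.13 and -0.12 on the log2 scale. SESN2, which binds leucine and restrains mTORC1, fell the most, from 286, 259 and 268 CPM in Ab to 21.8, 21.4 and 19.8 in NR and 24.5, 23.7 and 22.3 in SP, or 12.8-fold and 11.5-fold. DDIT4, or REDD1, which also restrains mTORC1, fell by 1.03 and 0.999 on the log2 scale. TSC1, part of the complex that inhibits RHEB, fell 1.67-fold and 1.51-fold. RRAGC, one of the Rag GTPases that recruit mTORC1 to the lysosome, fell 2.11-fold and 2.17-fold. LAMTOR4, a Ragulator subunit that anchors them, rose 1.99-fold and 1.90-fold.

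**Figure D5:**
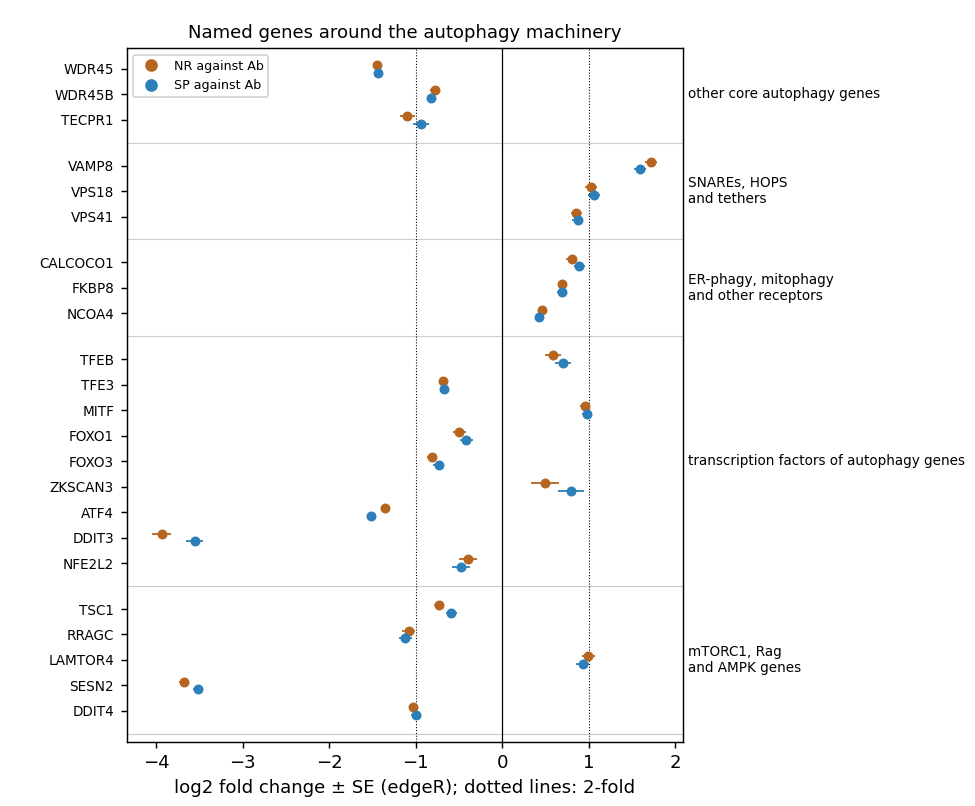
Log2 fold change with its standard error (edgeR) in NR against Ab (brown) and SP against Ab (blue) for genes of 5 lists around the autophagy machinery. Shown are the transcription factors and the genes of each other list with the smallest p in NR against Ab. All points had an adjusted p of at most 0.05, and dotted lines mark 2-fold. DDIT3 and SESN2 lie beyond -3 and VAMP8 is the highest of the genes shown, at 1.72 and 1.59.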

How the data were processed

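Raw counts per Ensembl gene were deposited by the authors as 1 table per group, 9 libraries in all. Per the labels and methods, poly(A) RNA was purified from total RNA, and NEBNext libraries made from it were aligned with HISAT2 2.1.0. The counter is named differently in different sources, strand use and annotation release are not stated, and the build is given as hg19 in one source and mm9 in the labels, while the gene IDs are human. Version suffixes were removed from the IDs. Symbols, GRCh37 positions and exon lengths came from GENCODE 44 lifted to GRCh37 (59858 IDs named), so overlaps with neighbouring genes are those of that annotation.

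Each comparison was fitted with edgeR 4.0.16 in R 4.3.3 on its 6 libraries, after filterByExpr (settings min.count 10 and min.total.count 15, which need about 10 counts in as many libraries as the smaller group holds), with TMM factors, a robust quasi-likelihood F test and Benjamini-Hochberg adjustment over all genes tested. Values are CPM, or CPM per kilobase of exon. The test was tried on data simulated for each comparison, where it recovered most of the changed genes. In the simulations of NR and of SP against Ab, the share of false calls among all calls was above the 0.05 threshold. Counting error was not given separately, since the spread between libraries includes it. The members and gene lists were chosen with earlier results of these data known. All 39 members may be named, and so may all listed transcription factors, the 5 mTORC1 genes and the 3 genes of each other list with the smallest p in NR against Ab. Any other gene was picked with its values in view. Alternatives were RLE factors, library totals, DESeq2 1.42.0, other filters, a joint fit, a replicate block, leaving out each library, other fold minimums and leaving out members with shared exon bases. A leukocyte marker on the list is not reported here.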

Additional observations from a re-analysis of the deposited data

How the results depend on the processing

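The counts of members that rose or fell stayed within 1.5 times under RLE factors, library totals, DESeq2, both other filters, the joint fit and without the 9 members that share over 10% of exon bases. Members called were 11 in NR and 11 in SP with a fold minimum of 1.5, 1 in NR when tested against 2-fold itself (glmTreat), and 4 in SP without Ab replicate 1 (ULK1, MAP1LC3B, RB1CC1 and OPTN). Leaving out 1 library gave 5 to 8 risen, 15 to 17 fallen and 3 called in NR, and 8 to 9 risen, 14 to 15 fallen and 2 to 4 called in SP, with 0 in NR against SP. No member that passed changed sign under these alternatives.

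The same-numbered libraries of different groups did not deviate together (correlations of -0.10 to 0.04), and libraries of other numbers gave -0.07 to 0.12. Such low correlations cannot exclude that equal numbers were prepared together, and the labels do not say. With the replicate block, 7 members rose, 16 fell and 3 were called in NR, and 9 rose, 15 fell and 2 were called in SP. The members whose pass at the adjusted p threshold depended most on the setting were ATG14 and ATG4C in NR and PIK3C3 and ATG16L1 in SP. ATF4 in NR against SP passed with DESeq2 (adjusted p = 0.0425), with no filter on low counts (adjusted p = 0.0101) and without SP replicate 3 (adjusted p = 0.0261). The cause was not tested. GABARAP, at 0 to 7 counts a library, was not tested. Of the members tested, MAP1LC3A, ATG4C, STX17, ATG10 and ATG4A had the fewest counts.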
